A study of Mus musculus with 4 samples.

Results

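The 10 genes described here are core members of the Notch pathway: 3 receptors (Notch1, Notch2, Notch3), 4 ligands (Jag1, Jag2, Dll1, Dll4) and 3 target genes (Hes1, Hey1, Heyl). They were chosen by symbol, and all 10 were found among the 32285 genes measured. The study profiled wild-type, untreated mouse tissue with Visium slides, on which printed spots capture the polyadenylated RNA of a frozen section and keep its position. It comprised 1 section of an E13.5 embryo, 1 section of an E16.5 embryo and 2 sections of esophagus dissected at P0, in a study of epithelial and muscle development in the esophagus. The embryo sections cover many organs besides the esophagus, and each P0 section holds several separate strips of tissue. The labels do not name the animals behind the sections. The P0 p-values therefore rest only on how far differences between regions disagree between 2 sections. That disagreement may be technical, and its estimate is pooled in part or wholly over genes.

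Notch receptors are single-pass membrane proteins that are cut when a ligand of the Jagged or Delta-like family on a neighbouring cell binds them. The freed intracellular domain joins the DNA-binding protein RBPJ and switches on genes such as those of the Hes and Hey families, which encode transcriptional repressors. In development the pathway is known for holding neural progenitors undifferentiated, for arterial and mural cell differentiation, for T cell commitment in the thymus and for differentiation of stratified epithelia.

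The files held 7357333 to 105835664 unique molecular identifiers (UMIs, single captured RNA molecules) per section. With at least 500 UMIs per spot, 3220 spots were kept at E13.5, 3588 at E16.5, and 363 and 264 in P0 replicates 1 and 2, at medians of 25465 to 29289 UMIs per spot. Pairs of sections shared 24 to 2542 spot barcodes, which on this platform name a position on the slide and not a cell. A level is the number of UMIs of a gene in 1000000 UMIs (CPM), and its 95% interval is the exact Poisson interval, which covers counting error only. A spot can hold several cells of different types, so fewer cells of a type and less RNA per cell cannot be told apart in any value below.

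Over whole sections, the most marked difference between the P0 esophagus and the embryo sections among the 10 genes was in Hes1, the archetypal Notch target and a repressor of differentiation genes. Hes1 stood at 33.4 CPM at E13.5, 26.6 CPM at E16.5, and 178 and 177 CPM in P0 replicates 1 and 2. Both P0 sections were above both embryo sections, and the P0 mean was 178 ± 0.818 CPM (SD, n = 2). Hey1, a related repressor known in arteries and the nervous system, ran the other way at 20.9 CPM at E13.5, 16.3 CPM at E16.5, and 4 and 4.76 CPM in P0 replicates 1 and 2. Its P0 values rested on 41 and 35 UMIs, with intervals of 2.87 to 5.42 and 3.31 to 6.62 CPM, below both embryo values. Heyl, the member of this family known from mural cells and skeletal muscle, was at 12.1 CPM at E13.5, 13.7 CPM at E16.5, and 10.04 and 15.1 CPM in P0 replicates 1 and 2, and the P0 values lay on either side of both embryo values.

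**Figure D1:**
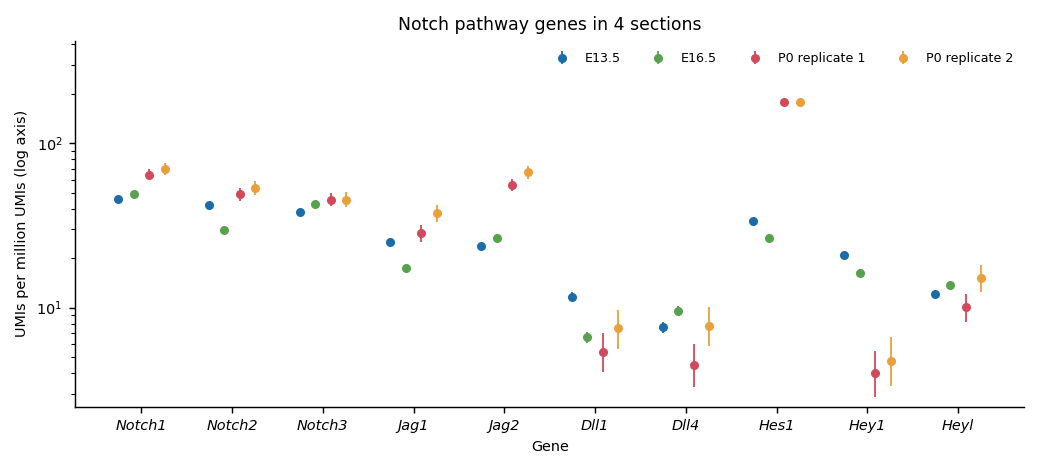
CPM (log axis) of the 10 Notch pathway genes in all kept spots of each section; points are sections and bars exact Poisson 95% intervals. Hes1 sits near 178 CPM in both P0 sections against 26.6 and 33.4 CPM in the embryo sections, and Hey1 lies below 5 CPM at P0.

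Among the receptors, Notch1, the broadly expressed receptor needed for T cells and epidermal barrier formation, was found at 45.4 CPM at E13.5, 48.9 CPM at E16.5, and 64.3 and 69.7 CPM in P0 replicates 1 and 2. Notch2, a receptor with wide mesenchymal and epithelial expression, was at 42.2 CPM at E13.5, 29.5 CPM at E16.5, and 48.8 and 53.6 CPM in P0 replicates 1 and 2. For Notch1 both P0 sections lay above both embryo sections, and the same held for Notch2. Notch3, the receptor of vascular smooth muscle and pericytes, was at 38 CPM at E13.5, 43 CPM at E16.5, and 45.4 and 45.4 CPM in P0 replicates 1 and 2, a narrow range with the P0 intervals overlapping that of E16.5.

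Of the ligands, Jag2, known from stratified epithelia, was at 23.5 CPM at E13.5, 26.5 CPM at E16.5, and 55.6 and 66.5 CPM in P0 replicates 1 and 2, with both P0 sections above both embryo sections. Jag1, a ligand of vessels, smooth muscle and many epithelia, was at 25 CPM at E13.5, 17.4 CPM at E16.5, and 28.4 and 37.7 CPM in P0 replicates 1 and 2, the highest value being that of P0 replicate 2. Dll1, the ligand of neurogenesis and somite formation, was at 11.7 CPM at E13.5, 6.58 CPM at E16.5, and 5.36 and 7.48 CPM in P0 replicates 1 and 2. Dll4, the ligand of arteries, sprouting capillaries and thymic epithelium, was at 7.58 CPM at E13.5, 9.57 CPM at E16.5, and 4.48 and 7.75 CPM in P0 replicates 1 and 2. The E13.5 value of Dll1 was above the other sections, whereas for Dll4 the P0 sections lay on either side of the E13.5 value.

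Between the embryo sections, 5 genes were lower and 5 higher at E16.5 than at E13.5, and the split of all genes was not computed. The difference was widest for Dll1, whose level at E16.5 was 0.564-fold (95% interval 0.513 to 0.62) that at E13.5. Notch2 and Jag1 followed at 0.699-fold (95% interval 0.667 to 0.732) and 0.696-fold (95% interval 0.655 to 0.739). At the other end, Dll4 was 1.26-fold (95% interval 1.15 to 1.39) its E13.5 level. With 1 section per stage there is no replicate check. Stage, the organs cut by each section and, for P0, the dissection to esophagus alone cannot be told apart in these section values.

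To place the genes in tissue, spots of the embryo sections were ranked by lists of marker genes that hold none of the 10, and the top 2% for each list were taken (64 spots at E13.5, 72 at E16.5). A list was used where at least 3 of its ranking markers and 1 marker held out of the ranking reached 20 CPM there, and the median ratio of the held-out markers to all other spots was at least 2. The epidermal, mucosal keratin, lung and thymocyte lists were therefore not used at E13.5, nor the pericyte list at E16.5. Some lists pick the same spots. At E13.5, 17 of 64 were shared by the cartilage and pericyte lists, 12 by the ciliated cell and neural progenitor lists, 11 by the endothelial and pericyte lists and 37 by the liver and blood lists, and at E16.5, 36 of 72 were shared by the endothelial and lung lists, 43 by the epithelial and mucosal keratin lists and 33 by the epithelial and ciliated cell lists. Each set of spots is named by the list that ranked it and can hold other cells: among the 10 genes of highest fold, 9 of 15 lists used at E13.5 and 9 of 18 at E16.5 had none of their own markers. A gene is called higher or lower past 2-fold against all other spots of its section, and the share of all genes past that limit is given beside each count. There is no test, since each stage has 1 section, and intervals of ratios are exact binomial and cover counting error only.

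**Figure D2:**
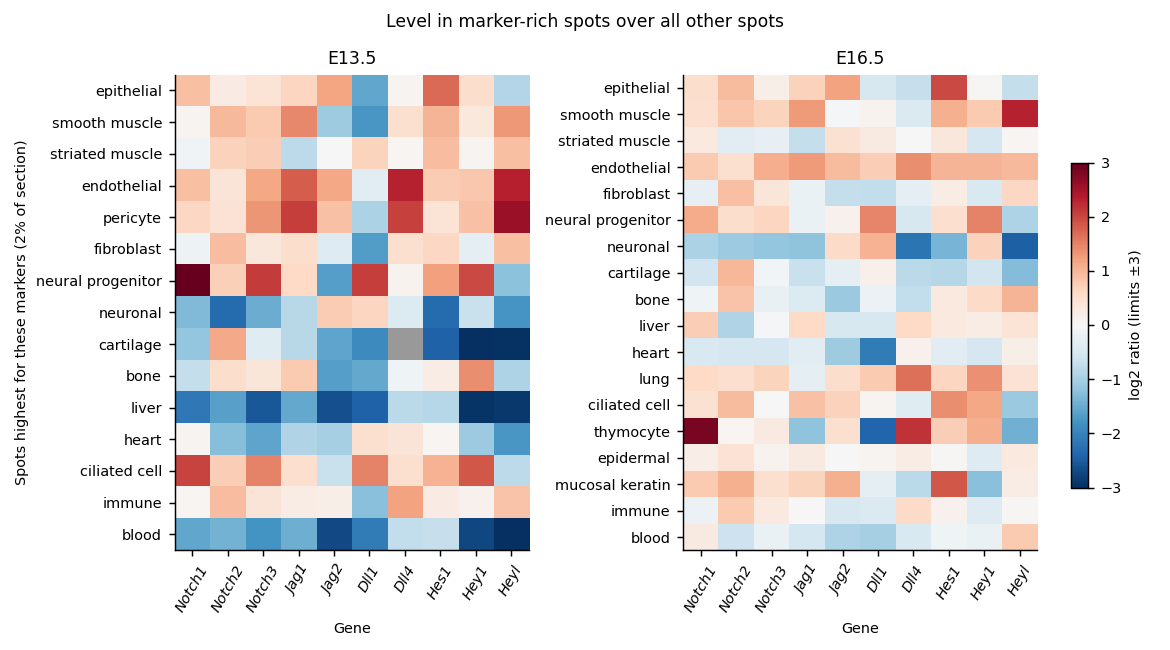
Heat maps of the log2 ratio of each gene's level in marker-rich spots over all other spots of the same embryo section, for the lists used at E13.5 and E16.5 (rows) and the 10 genes (columns); colour limits are ±3. Notch1 is darkest red in neural progenitor spots at E13.5 and thymocyte spots at E16.5, and the grey cell marks 0 Dll4 UMIs, where 3 UMIs would be 4.7 CPM.

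Neural progenitor spots of the E13.5 section, rich in Sox1, Pax6 and Nes, carried the receptors Notch1 and Notch3, the ligand Dll1 and the targets Hes1 and Hey1. These 5 of 10 genes were past 2-fold higher there, against 9.04% of all genes. Notch1 reached 360.3 CPM (95% interval 335 to 387) against 38.6 elsewhere, 9.34-fold (8.62 to 10.1). Notch3 was at 151 CPM, 4.25-fold (3.78 to 4.77), and Dll1 at 45.7 CPM, 4.18-fold (3.36 to 5.16). All 3 were thus several times above the rest of the section. Hey1 was at 77.6 CPM and 3.95-fold (3.35 to 4.64), Hes1 at 76.1 CPM and 2.35-fold (1.99 to 2.75). Jag2 and Heyl, at 7.61 and 5.24 CPM, were the 2 genes past 2-fold lower, where 26.3% of all genes were.

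Neuronal spots of the same section, rich in Tubb3, Stmn2 and Snap25, had low receptor and Hes1 levels. Notch1, Notch2, Notch3, Hes1 and Heyl were past 2-fold lower there, 5 of 10 genes against 25.9% of all genes, and 0 were past 2-fold higher, against 9.47%. Notch1 stood at 18.4 CPM (95% interval 13.7 to 24.2), Notch2 at 8.67 and Hes1 at 6.86. Dll1 and Jag2, at 18.1 and 39.4 CPM against 11.5 and 23.1 elsewhere, were above the other spots without passing 2-fold. The neuronal and neural progenitor intervals of Notch1 do not overlap.

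At E16.5 the ratios of Notch1, Notch3, Dll1, Hes1 and Hey1 in neural progenitor spots were smaller than at E13.5. Neural progenitor spots had Notch1 at 103 CPM, 2.17-fold (1.92 to 2.43), Dll1 at 17.2 CPM and Hey1 at 43.7 CPM, 3 of 10 genes higher against 19.3% of all genes. Hes1, at 37 CPM, was not past 2-fold, and 0 of 10 were lower, against 19.8%. Neuronal spots had 6 of 10 genes lower, against 28.2%, among them Dll4 at 2.13 CPM and Heyl at 2.55 CPM. The exception was Dll1, 2.05-fold (1.38 to 2.94) higher in the neuronal spots, where 18.9% of all genes were higher.

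Of 40 other pathway genes, 10 were past 2-fold higher and 3 lower in the neural progenitor spots at E13.5, where 9.04% of all genes were higher and 26.3% lower. The 4 below were named after their values were seen. Hes5, the Notch target of the nervous system, was at 505 CPM (95% interval 475 to 536) there and 29.2 CPM in the neuronal spots. Nrarp, a target that feeds back on the receptor complex, was at 179 against 16.6 CPM, and Lfng, which adds sugars to the receptor, at 69 against 6.5 CPM. All 3 were higher in progenitor than in neuronal spots. Dner, a membrane protein of neurons, was at 501 and 429 CPM, high in both. At E16.5 Hes5 was instead at 72.8 CPM in the progenitor and 91.4 CPM in the neuronal spots.

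RBPJ binds sequences holding the core GTGGGAA, whose reverse complement is TTCCCAC. In the RefSeq promoter table (GRCm38.p6), the 250 bases before the start that the table takes for each gene held it on either strand in 1779 of 32851 promoters, 5.42%. It was found in 0 of 7 promoters of the 10 genes that the table holds (Notch1, Notch2, Notch3, Jag1, Jag2, Dll1 and Dll4) and in 6 of 34 promoters of other pathway genes. The 4 windows below are those of Hes5 and Lfng, shown because both genes were past 2-fold higher in the progenitor spots at E13.5, and of Hey2, a Hey family gene lower in the epithelium-rich P0 spots described later. Capitals mark the core, each window runs along the gene's own strand, and a match of letters shows no binding.
Hes5, chr4:154960829-154960858, plus strand: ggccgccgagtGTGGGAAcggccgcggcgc
Hes5, chr4:154960686-154960715, plus strand: gggcgagcgcgTTCCCACagcccggacatt
Lfng, chr5:140607221-140607250, plus strand: ccgtatcccacGTGGGAAggagagatctcc
Hey2, chr10:30842972-30843001, minus strand: gcgcggtggcaTTCCCACgcctctgccaac
The Hes5 promoter held the core on both strands, starting 83 and 226 bases before the start that the promoter table takes, chr4:154960923. The RefSeq gene table begins Hes5 further upstream, at 154960626, so both Hes5 windows lie inside the gene as that table gives it.

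Endothelial spots, ranked by Pecam1, Cdh5, Kdr and 5 other genes, were rich in Dll4, Jag1 and Notch3 in both embryo sections. At E16.5 the 10 genes of highest fold in these spots held no endothelial marker and included the distal lung genes Lamp3, Slc34a2 and Sftpb, and the part of lung in the E16.5 values was not tested. At E13.5, Notch3, Jag1, Jag2, Dll4 and Heyl were higher, 5 of 10 against 8.6% of all genes. At E16.5, Notch3, Jag1, Dll4, Hes1 and Hey1 were, 5 of 10 against 11.5%. On the lower side there were 0 of 10 in both sections, against 18.6% and 22.7% of all genes. Dll4 stood at 34.7 CPM (95% interval 26.8 to 44.1) at E13.5, 4.92-fold (3.76 to 6.34), and at 24.8 CPM (95% interval 17 to 35) at E16.5, 2.64-fold (1.8 to 3.76). Jag1 was at 83.6 and 41.1 CPM, and Notch3 at 83 and 90.7 CPM. Heyl was 5.01-fold (4.07 to 6.12) higher at E13.5 and stood at 26.3 CPM at E16.5, 1.95-fold (1.35 to 2.74), just short of 2-fold. The spots ranked by the pericyte list at E13.5 had no pericyte marker among their 10 genes of highest fold, which included Th, Dbh and Slc18a1, genes of catecholamine cells. The held-out pericyte markers had a median ratio of 2.21. In these spots Heyl reached 67.2 CPM, 5.97-fold (4.81 to 7.34), Jag1 100.5 CPM, Notch3 93.7 CPM and Dll4 29.9 CPM, 4 of 10 genes against 9.0%, with 0 lower against 20.7%.

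Smooth muscle spots, rich in Myh11 and Actg2, had the same 3 genes higher at both stages: Jag1, Hes1 and Heyl, against 6.14% of all genes at E13.5 and 7.51% at E16.5. Heyl was at 29 CPM (95% interval 22.4 to 36.9) at E13.5 and 63.5 CPM (95% interval 51.6 to 77.3) at E16.5, intervals that do not overlap. Jag1 was at 65.5 and 41.1 CPM, and Hes1 at 65.9 and 54.5 CPM, in order of stage. Of these spots, 4 of 64 at E13.5 and 3 of 72 at E16.5 were also epithelial spots, and 11 at E16.5 mucosal keratin spots. Krt13 was among the 10 genes of highest fold in the smooth muscle spots at E13.5. The part of epithelium in the Hes1 values was not tested. Jag2 and Dll1 were past 2-fold lower at E13.5, at 11.4 and 3.52 CPM (2 of 10 against 24.2%), and 0 of 10 were at E16.5, against 21.0%. In striated muscle spots 0 of 10 genes passed 2-fold in either direction at either stage, against 6.28% of all genes higher and 28.5% lower at E13.5, and 5.16% and 37.8% at E16.5.

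Epithelial spots, ranked by Epcam, Cdh1 and 8 keratin and junction genes, had Jag2 and Hes1 higher at both stages, 2 of 10 genes against 9.08% of all genes at E13.5 and 17.4% at E16.5. At E13.5 the 10 genes of highest fold in these spots held no epithelial marker and included Foxn1, Tcrg-C1 and Tcrg-C2. Of the 64 spots, 9 were also top spots of the thymocyte list, which was not used at E13.5. The part of thymus in the E13.5 values was not tested. Hes1 was at 105 CPM (95% interval 89.5 to 123) at E13.5, 3.26-fold (2.76 to 3.83), and at 101 CPM (95% interval 86.4 to 117) at E16.5, 3.98-fold (3.38 to 4.64). Jag2 was at 52.7 and 60.04 CPM, a little over 2-fold above the rest each time. Spots rich in mucosal keratins (Krt13, Krt4) at E16.5 added Notch2 to this pair, at 61.2 CPM, with Jag2 at 54.3 and Hes1 at 93.5, 3 of 10 genes against 13.3%, on 72 spots of which 43 are also epithelial spots. Hey1 was lower there, at 6.87 CPM (1 of 10 against 22.4%). Dll1 was past 2-fold lower in the epithelial spots at E13.5, at 4 CPM from 6 UMIs (1 of 10 against 24.9%), and 0 of 10 were lower in those at E16.5, against 22.1%.

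The E16.5 section also cut a block of thymocyte-marker spots, with Cd4, Cd3e and Rag1, whose median depth of 7586 UMIs was well under the section's 26701.5. Notch1, which T cell precursors need, was at 338 CPM (95% interval 298 to 381) there, 7.22-fold (6.36 to 8.17). Dll4, its ligand on thymic epithelium, was at 41.9 CPM (95% interval 28.8 to 58.8), 4.49-fold (3.07 to 6.35), and Hey1 at 34.3 CPM. These 3 genes were higher, against 19.7% of all genes, while Jag1, Dll1 and Heyl were lower on 6, 1 and 4 UMIs, against 37.0%. Dll4 and Hey1 were also the 2 genes higher in lung-marker spots (Sftpc, Nkx2-1) at E16.5, at 29.5 and 41.5 CPM, against 12.4%, with 0 lower against 28.2%. The lung and endothelial lists share spots, as given above, and the part of endothelium in the lung values was not tested.

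Cartilage-marker spots had Notch2 higher at both stages, at 92.5 CPM, 2.21-fold (1.68 to 2.86), and 58.9 CPM, 2.01-fold (1.37 to 2.84). It was the only one of the 10 to pass on the higher side, against 10.2% and 9.48% of all genes. At E13.5 the other 7 genes past 2-fold in these spots were lower, against 35.3%, on 0 to 13 UMIs each, at a median depth of 9648 UMIs per spot. At E16.5 Heyl was lower on 3 UMIs, against 28.3%. Hey1 marked the bone-marker spots (Sp7, Ibsp) at E13.5, at 53.5 CPM, 2.64-fold (2.12 to 3.26), and Heyl those at E16.5, at 27.5 CPM, 2.04-fold (1.44 to 2.82). Each was 1 of 10 genes, against 6.77% and 8.64% of all genes. Jag2 and Dll1 were lower in bone spots at E13.5 (2 of 10 against 25.8%), and Jag2 alone at E16.5 (1 of 10 against 29.9%). Liver spots at E13.5 were low for 8 of 10 genes, against 49.6% of all genes, with Notch1 at 10.4 CPM and Jag2 at 3.84 CPM. Higher levels were found for 0 of 10 there, against 8.14%. The liver spots at E16.5 had 0 of 10 past 2-fold on either side, against 6.8% higher and 14.5% lower. They are less certain as liver, since only 1 of 3 held-out markers reached 20 CPM. Of these spots 47.2% had a direct neighbour in the set, against 90.6% at E13.5. Their 10 genes of highest fold held 5 liver markers, but also Sprr2k, Sprr1b and Sprr2d. Whether the liver spots of both stages hold the same tissue was not tested.

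Spots rich in ciliated cell genes (Foxj1, Dnah5) at E13.5 had the same 5 genes higher as the neural progenitor spots with which they share 12 spots, against 10.1% of all genes, and 0 lower, against 18.0%. Notch1 was at 173 CPM and Hey1 at 71.7 CPM there. At E16.5 the ciliated cell spots, 33 of 72 of them also epithelial spots, had Hes1, at 67.7 CPM, and Hey1, at 35.7 CPM, higher, against 18.0%, and Heyl lower, against 16.1%. In the heart, Notch2, Notch3, Hey1 and Heyl were lower at E13.5 (4 of 10 against 36.6%; 0 higher against 7.7%), with Notch3 at 12.9 CPM. Jag2 and Dll1 were lower there at E16.5 (2 of 10 against 38.4%; 0 higher against 3.83%).

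Immune-marker spots had Dll4 higher at E13.5, at 17.1 CPM (1 of 10 against 8.0%), and Dll1 lower, at 4.96 CPM (1 of 10 against 17.6%). These spots share 7 of 64 with the endothelial list. Fibroblast-marker spots at E13.5 had Dll1 lower on 7 UMIs (1 of 10 against 21.9%) and 0 of 10 higher, against 7.55%. Blood-marker spots at E13.5 had the same 8 genes lower as the liver spots (against 49.2%) and 0 higher (against 6.82%). At E16.5 the fibroblast, immune, blood and epidermal spots had 0 of 10 genes past 2-fold. The shares of all genes higher were 8.98%, 7.83%, 3.3% and 8.8% in that order, and lower 26.1%, 23.1%, 39.5% and 27.4%.

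**Figure D3:**
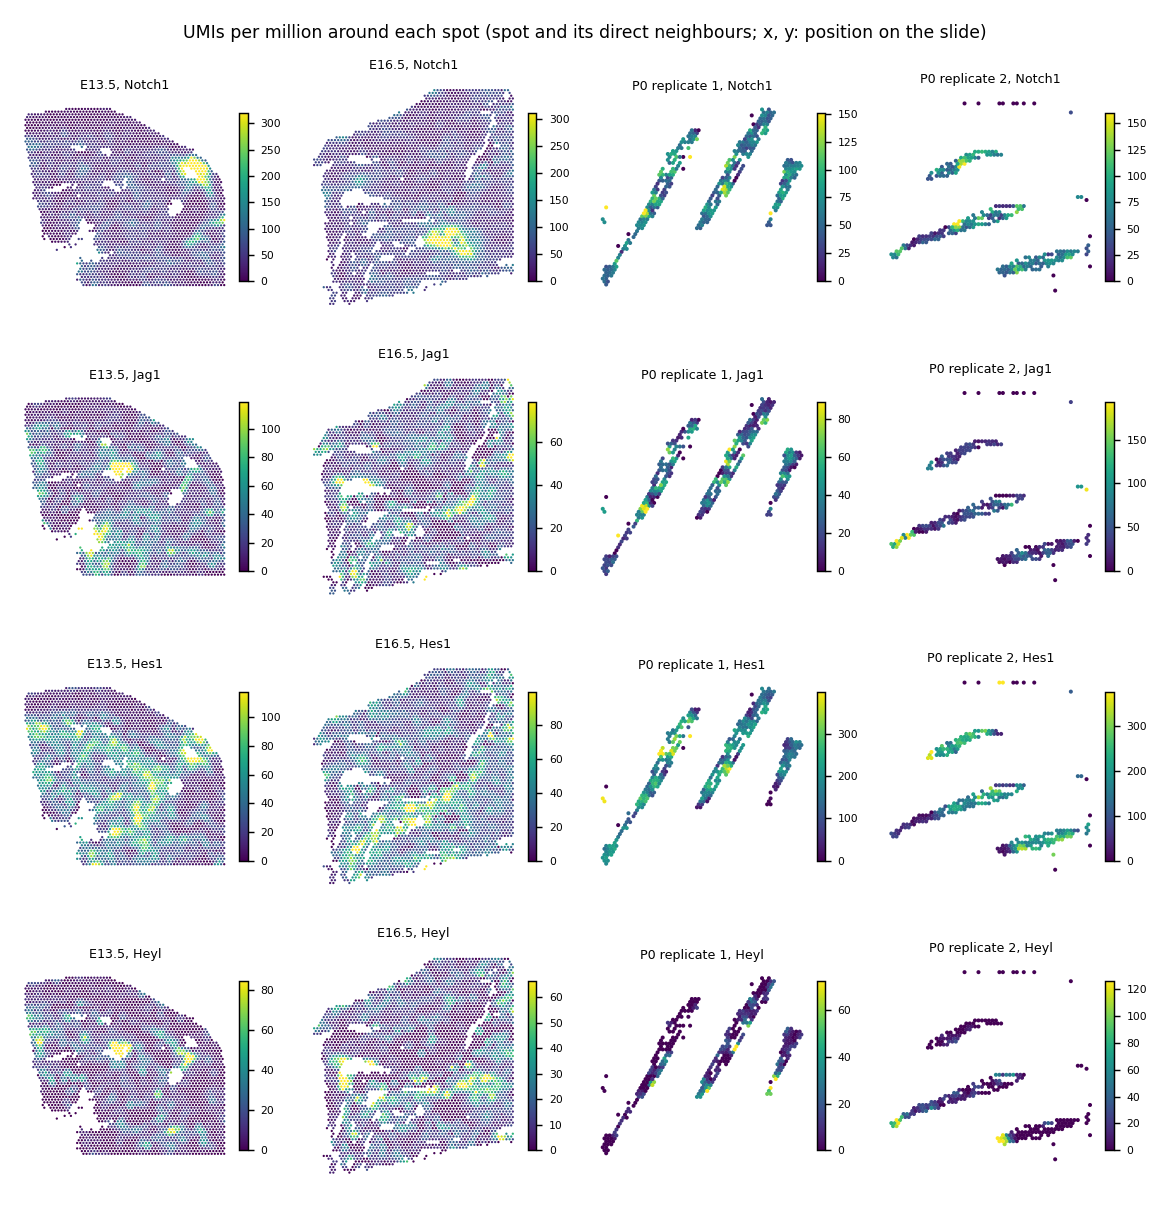
Maps of Notch1, Jag1, Hes1 and Heyl in the 4 sections, as CPM over each spot and its direct neighbours (colour, scaled within each panel up to its 99th percentile) at the spot's position on the slide. Notch1 forms a compact bright area in each embryo section, and Heyl in P0 replicate 2 is bright at the ends of 2 strips.

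In the P0 esophagus, the highest 25% of spots by epithelial markers (91 and 66 spots) were compared with the highest 25% by smooth and striated muscle markers, with section as a block. Jag2, Jag1, Notch1, Notch2 and Hes1 were higher in epithelium-rich spots, and Heyl, Hey1 and Dll4 were higher in muscle-rich spots. All 10 genes passed the filter on low counts. In edgeR's quasi-likelihood test with Benjamini-Hochberg adjustment over 12740 genes, 5 of 10 were higher in the epithelium-rich spots, against 27.0% of all genes, and 3 lower, against 27.8%. Their median log2 fold change was 0.48 and that of all genes -0.01. The 8 of 10 called in all are to be read against 54.8% of all genes.

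Hes1 had the widest positive difference. It stood at 244 and 247 CPM in the epithelium-rich spots of replicates 1 and 2, 61.4 and 47.1 in the muscle-rich spots and 175 and 173 in all other spots. The replicates lay close together and the regions did not overlap. The log2 fold change, given here and below with its standard error, was 2.47 ± 0.13 (adjusted p = 5.87e-09). With muscle-rich spots chosen by striated muscle markers alone it was 1.35 (adjusted p = 6.66e-05). In replicates 1 and 2, 14 and 5 spots ranked in both regions under that choice. They were dropped, which left 77 and 61 spots per region. The part of epithelium in the striated muscle spots was not tested, here or for the genes below.

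Of the ligands, Jag2 was at 54.7 and 69.1 CPM in the epithelium-rich and 20.1 and 29.4 CPM in the muscle-rich spots, and the log2 fold change was 1.63 ± 0.16 (adjusted p = 1.90e-06), or 0.46 (0.0182) against striated muscle spots alone. The other spots were above both, at 71.6 and 82 CPM. Jag1 was at 36.4 and 39.95 against 15.1 and 23.2 CPM, a log2 fold change of 1.32 ± 0.20 (adjusted p = 8.18e-05), smaller in replicate 2 alone (0.78 on library size). Both Jagged ligands thus had epithelium-rich and muscle-rich values that did not overlap. Jag1 in the other spots was at 27.6 and 42.5 CPM, above the epithelium-rich value in replicate 2. Dll4 was at 2.16 and 1.04 CPM in the epithelium-rich spots (8 and 3 UMIs) and 3.02 and 11.6 in the muscle-rich spots (6 and 17 UMIs), a log2 fold change of -1.66 ± 0.62 (adjusted p = 0.0373). That call rests on replicate 2: the difference was -3.24 in replicate 2 alone and -0.46 in replicate 1 alone. It was lost with DESeq2 (adjusted p = 0.156), without the block (0.0589) and at 2000 UMIs per spot (0.0506). The other spots had Dll4 at 7.01 and 12.3 CPM, above the muscle-rich spots in both sections. Dll1, at 4.58 and 4.86 against 6.54 and 11.6 CPM, did not pass (log2 -0.59 ± 0.39, adjusted p = 0.225).

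Of the receptors, Notch1 was at 74.2 and 84.1 CPM in the epithelium-rich and 45.3 and 41.7 CPM in the muscle-rich spots. The regions did not overlap, and the log2 fold change was 1.15 ± 0.14 (adjusted p = 1.03e-05), or 1.01 in replicate 2 alone and 0.71 in replicate 1 alone on library size. Against striated muscle spots alone it was 0.70 (adjusted p = 0.00204). Notch2 was at 52.3 and 58 against 50.8 and 39.6 CPM, nearly level in replicate 1 (0.04) and not in replicate 2 (0.55), with a log2 fold change of 0.56 ± 0.16 (adjusted p = 0.00888). Its call depended on the method: it was lost with DESeq2 (adjusted p = 0.116) and with edgeR on library size alone (log2 0.26, adjusted p = 0.211). Notch3, at 47.7 and 42 against 36.2 and 49.2 CPM, overlapped between regions and did not pass (log2 0.40 ± 0.17, adjusted p = 0.0625).

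Of the other targets, Heyl was at 1.89 and 1.74 CPM in the epithelium-rich spots, from 7 and 5 UMIs, and at 26.2 and 42.3 CPM in the muscle-rich spots. Its log2 fold change of -3.86 ± 0.33 (adjusted p = 3.87e-07) was the widest of the 10. Hey1 was at 1.89 and 0.695 against 7.54 and 10.9 CPM, from 7 and 2 against 15 and 16 UMIs, a log2 fold change of -2.40 ± 0.56 (adjusted p = 0.0025). For both genes the values of the other spots fell between those of the 2 regions, which did not overlap. Hey1 differed by -3.63 in replicate 2 alone and -1.92 in replicate 1 alone. Against striated muscle spots alone the log2 fold change of Hey1 was -3.02 and that of Dll4 -2.44.

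Scaling matters for these values. On library size alone, chosen after the data were seen, the median of all genes shifted by -0.30 on the log2 scale, and the share of called genes that were higher in the epithelium-rich spots moved from 49.2% to 32.4%. Of all genes, 2381 were then higher and 4960 lower. Of the 10 genes, 4 were then higher and 3 lower, Notch2 being the one lost.

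Other cell types moved with the same comparison. All 11 endothelial markers and 8 of 9 pericyte markers were higher in the muscle-rich spots, at summed levels of 514 to 547 and 537 to 558 CPM against 58.7 to 85.8 and 75.4 to 98.2 in the epithelium-rich spots, and so were 10 of 10 fibroblast markers. Of the immune, enteric nerve and neuron markers tested, 8 of 9 each were higher in the muscle-rich spots, at summed levels of 473 to 567, 327 to 404 and 151 to 159.8 CPM against 112 to 113, 129.9 to 139 and 3.82 to 15.1. So were 8 of 8 liver and 4 of 5 blood markers tested. The striated muscle list in the muscle-rich spots ran from 3052 to 16509.8 CPM between the 2 sections. The part of these cells in the differences of the 10 genes was not tested. In the epithelium-rich spots the held-out markers Cldn7, Trp63 and Cdh3 had a median ratio of only 1.34 and 1.32 to all other P0 spots, although 3 of 3 were higher than in muscle-rich spots. An embryo list with such a ratio, under 2, would not have been used. The mucosal keratin list summed to 40733 to 43067 CPM in the epithelium-rich spots, while the lung marker Nkx2-1 and the thymocyte markers Cd3e and Rag1 had 0 UMIs there. Median depth was 39325 and 38936.5 UMIs per epithelium-rich spot and 19800 and 19895 per muscle-rich spot.

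**Figure D4:**
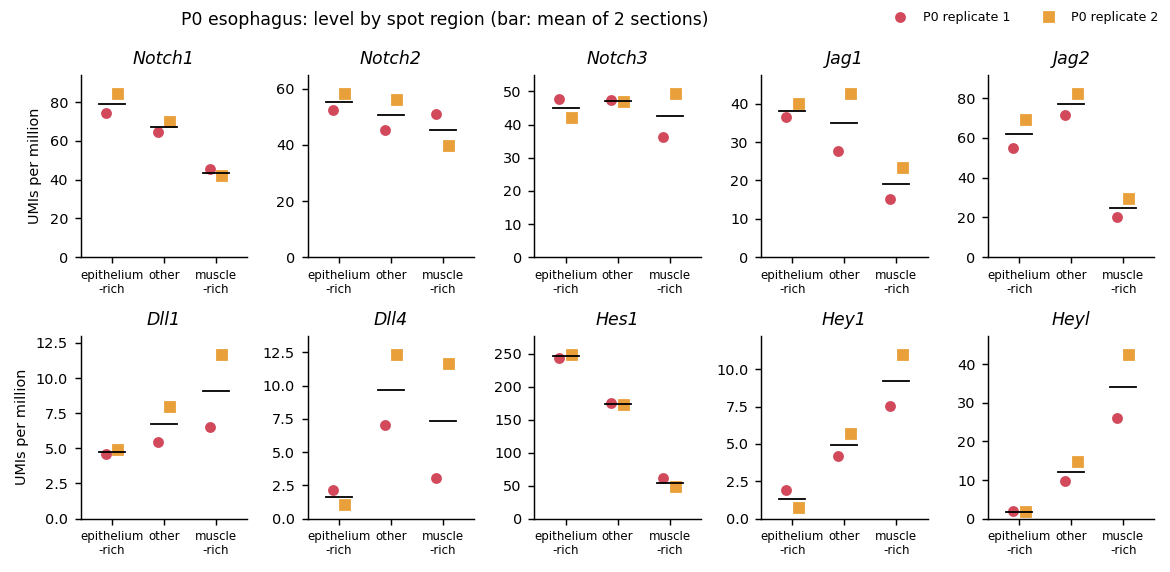
CPM of the 10 genes at P0 in the epithelium-rich, other and muscle-rich spots of the esophagus; circles are replicate 1, squares replicate 2 and lines their mean. Hes1 sits at 244 and 247 CPM in epithelium-rich and 61.4 and 47.1 CPM in muscle-rich spots, and Heyl at 1.89 and 1.74 against 26.2 and 42.3 CPM.

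Of 40 further pathway genes, 37 were tested between epithelium-rich and muscle-rich spots, with a median log2 fold change of 0.01. In the epithelium-rich spots 16 were higher, against 27.0% of all genes, and 14 lower, against 27.8%. The 6 with the widest differences were all lower there. Dlk1, a non-canonical ligand, was at -3.14 ± 0.14 (adjusted p = 1.25e-09). Dtx1, a ubiquitin ligase that acts on Notch, was at -3.37 ± 0.41, and Hey2 at -3.17 ± 0.83. Mfng, a sugar transferase of the Fringe family, was at -2.43 ± 0.54, and the ligand-modifying ligases Neurl1a and Neurl1b at -2.65 and -2.03.

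Distance from the epithelium-rich spots gave a finer picture, described without a test since its steps were set after the data were seen. Hes1 was at 244, 169, 114 and 118 CPM at 0, 1, 2 and 3 or more spots away in replicate 1, and at 247, 168, 136 and 87.7 CPM in replicate 2. It was lower at 1 spot away than within the epithelium-rich spots, and lower again at 2, in both sections. Heyl ran from 1.89 to 16.2 CPM and from 1.74 to 46.4 CPM over the same steps. Dll4 was lowest within the epithelium-rich spots of both sections, at 2.16 and 1.04 CPM. Jag2 was at 54.7, 71.5, 44.6 and 37.3 CPM over these steps in replicate 1, highest at 1 spot away, and at 69.1, 71.3, 82.8 and 53.9 CPM in replicate 2, highest at 2. In both sections it was lowest at 3 or more spots away. The 12 and 20 spots that touch no strip with epithelium-rich spots were left out.

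**Figure D5:**
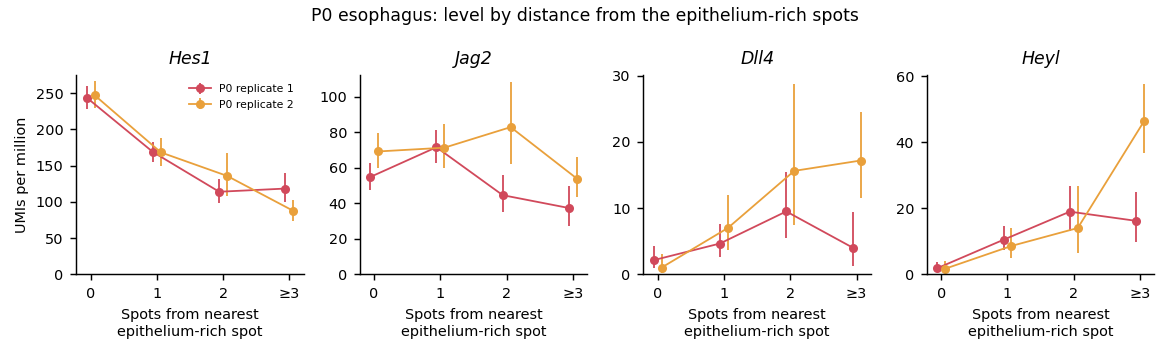
CPM of Hes1, Jag2, Dll4 and Heyl by the number of spots from the nearest epithelium-rich spot in each P0 section; bars are exact Poisson 95% intervals. Hes1 is highest at 0 spots (244 and 247 CPM), Heyl and Dll4 are lowest at 0 spots, and Jag2 is higher 1 spot away than within in replicate 1, while in replicate 2 these intervals overlap.

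Within the epithelium-rich spots, those leaning to basal markers (Krt5, Krt14, Krt15) were compared with those leaning to suprabasal markers (Krt13, Krt4, Sprr3). Held-out markers of the basal list had a median ratio of only 1.49 and 1.6 between the top 25% of P0 spots by that list and all other spots. Of the 6 genes that passed the filter, Jag2 alone was called, higher on the basal-leaning side. It was at 63.4 and 106 CPM in the basal-leaning and 46.4 and 41.7 CPM in the suprabasal-leaning spots of replicates 1 and 2. The sides did not overlap, and the log2 fold change was 0.74 ± 0.19 (adjusted p = 0.00252), where 2.16% of all genes were higher and 6.12% lower, 8.28% in all. The difference was wider in replicate 2 alone (1.34) than in replicate 1 alone (0.45). That disagreement had no weight in the edgeR p-value, since this fit took its spread wholly from all genes. DESeq2 gave Jag2 a log2 fold change of 0.74 and no adjusted p. DESeq2 had an adjusted p for Notch1 and Hes1 alone of the 6, and called neither (0.972 for both). Hes1, at 245 and 263 against 243 and 236 CPM, and Notch1, at 73.9 and 88.2 against 74.4 and 81 CPM, did not pass. Of the fibroblast markers, 6 of 10 were higher on the basal-leaning side, and their part in the Jag2 difference was not tested.

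Within the muscle-rich spots, those leaning to striated muscle were compared with those leaning to smooth muscle. Of the 7 genes that passed the filter, edgeR called 0, 0 had an unadjusted p under 0.05, and DESeq2 called 0, where edgeR called 1.35% of all genes, 1.23% higher and 0.124% lower on the striated-leaning side. Notch3 was at 51.3 and 46.3 CPM on the striated-leaning and 22.3 and 53 CPM on the smooth-leaning side (log2 0.60 ± 0.32). Heyl was at 23 and 55.8 against 29 and 24.1 CPM (log2 0.54 ± 0.37), and Jag1 at 13.6 and 14.3 against 16.45 and 35.3 CPM (log2 -0.69 ± 0.40). For Notch3 and Heyl the 2 sections differed in direction, and the sides overlapped.

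Outside the epithelium-rich spots of the P0 esophagus, the highest 25% by endothelial markers (68 and 50 spots) were compared with the rest. Dll4, Notch3 and Heyl were higher in the endothelium-rich spots and Hes1 was lower. All 10 genes were tested, and in edgeR's test these were 3 of 10 higher, against 9.5% of all genes, and 1 of 10 lower, against 8.91%. Dll4 was at 11.6 and 35.8 CPM in the endothelium-rich spots of replicates 1 and 2, from 16 and 37 UMIs, and 4.25 and 4.94 in the rest, a log2 fold change of 2.09 ± 0.37 (adjusted p = 9.88e-06). Notch3 was at 69.6 and 79.2 against 37.3 and 38.1 CPM, a log2 fold change of 0.86 ± 0.18 (adjusted p = 1.85e-04). For both genes the 2 regions did not overlap.

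Heyl was at 18.1 and 52.2 CPM in the endothelium-rich spots and 13.7 and 15.1 in the rest, a log2 fold change of 1.04 ± 0.27 (adjusted p = 0.00301) that was 1.77 in replicate 2 alone and 0.40 in replicate 1 alone. Hes1 was at 112 and 67.6 against 149 and 151 CPM, a log2 fold change of -0.85 ± 0.16 (adjusted p = 4.78e-05), likewise wider in replicate 2 alone (-1.16) than in replicate 1 alone (-0.41). Both genes thus differed in the same direction in both sections, and by unequal amounts. DESeq2 kept Hes1 (adjusted p = 0.0409) and lost Dll4 (0.0557), Notch3 (0.175) and Heyl (0.487). Without the block Heyl was lost as well (adjusted p = 0.12).

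Jag1, at 26.8 and 60.9 against 23 and 28.8 CPM, and Hey1, at 6.53 and 16.4 against 4.83 and 4.65 CPM, did not pass (adjusted p = 0.0688 and 0.0922). Both passed when the highest 15% of spots were taken (0.0354 and 0.0254), where Dll4 was at 2.73. Pericyte markers (8 of 9) and fibroblast markers (10 of 10) were also higher in the endothelium-rich spots, and 9 of 9 suprabasal markers tested were lower. Their part in the values of Notch3, Heyl and Hes1 was not tested. Of the 35 further pathway genes tested, 4 were higher, Notch4, Dlk1, Mfng and Dtx1, against 9.5% of all genes. Dlk2 and Maml3 were the 2 lower, against 8.91%.

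Epithelium-rich and smooth-muscle-rich spots were set side by side in all 4 sections, although the P0 epithelium-rich spots miss the limit set for embryo lists. Their held-out markers had median ratios of 1.34 and 1.32, where at least 2 was asked. In order of E13.5, E16.5 and P0 replicates 1 and 2, the log2 ratio of epithelium over smooth muscle was -2.12, -2.93, -3.86 and -4.14 for Heyl. It was 0.68, 0.89, 2.03 and 1.90 for Hes1, and 2.20, 1.23, 1.43 and 0.70 for Jag2. These 3 genes kept their side in every section, Heyl being higher in the muscle and the other 2 in the epithelium. Jag1 changed side: it was at 38.7 CPM in epithelium and 65.5 in smooth muscle at E13.5, and at 27.9 and 41.1 CPM at E16.5. At P0 it was at 36.4 and 16.2 CPM in replicate 1 and 39.95 and 30.6 CPM in replicate 2, so that epithelium was the higher side there. The regions are the top 2% of spots in embryos, which hold smooth muscle and epithelium of many organs, and the top 25% at P0, so stage, organ and region size cannot be told apart here.

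Likeness of pattern was measured over blocks of 6 by 12 array positions in the embryo sections (100 and 114 blocks), as the mean over both sections of Pearson's r of log2(CPM + 10), among 11489 genes. These are descriptions over blocks that share a library. The 3 genes most like each were as follows. For Notch1 they were Cxcr4 (0.71), H2afv (0.68), Celsr1 (0.64), for Notch2 Cd63 (0.85), Smo (0.85), Rcn1 (0.85), and for Notch3 Id3 (0.67), H2afv (0.66), Hes1 (0.66). For Jag1 they were Cald1 (0.59), Notch3 (0.58), Flna (0.58), for Jag2 Ube2e1 (0.69), Tspan13 (0.68), Rtn4 (0.68), for Dll1 Celsr2 (0.66), Mir9-3hg (0.66), Gm3764 (0.64), and for Dll4 Ets1 (0.55), Gimap1 (0.53), Icam2 (0.50). For Hes1 they were Ctdsp2 (0.80), Zfp36l1 (0.79), Clic1 (0.79), for Hey1 Scd2 (0.62), Spon1 (0.59), Arhgef26 (0.58), and for Heyl Ltbp4 (0.63), Tgfb1i1 (0.62), Tm4sf1 (0.62). The median r over all genes was between -0.04 and 0.20 for the 10 genes.

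Among the 10 genes themselves, Hes1 was closest in pattern to Notch2 (r = 0.76 for the E13.5 section, 0.55 for the E16.5 section) and to Notch3 (0.75 and 0.56). Notch1 and Notch3 had r of 0.73 and 0.45, and Heyl and Notch3 0.46 and 0.62. Jag1 and Jag2, both Jagged ligands, had r of -0.13 and 0.05. Dll1 ran against Notch2 at E13.5 (r = -0.45) and less so at E16.5 (-0.10), while Dll1 and Jag2 had r of 0.47 and 0.38.

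By the RefSeq table of GRCm38.p6, Notch1 lies at chr2:26457902-26503822, Notch2 at chr3:98013538-98150367, Notch3 at chr17:32120820-32166896, Jag1 at chr2:137081451-137116520 and Jag2 at chr12:112907803-112929812. Dll1 lies at chr17:15367354-15376932, Dll4 at chr2:119325784-119335666, Hes1 at chr16:30065357-30067796, Hey1 at chr3:8663359-8667038 and Heyl at chr4:123233556-123249870. Notch1, Jag1 and Dll4 share a chromosome, as do Notch2 and Hey1, and Notch3 and Dll1.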

How the data were processed

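The deposited files hold raw counts, UMIs per gene and spot, written by Space Ranger 2.0.0 per the file headers, against mm10 per the submitters' processing notes; all values are whole numbers. The 10 genes, the gene lists and the marker lists were chosen with earlier results of these data known. Each spot was scored as the mean over a marker list of log(1 + UMIs per 10000). P0 regions are the top 25% of a section and embryo regions the top 2%. For P0, the UMIs of a region were added up within each section (6 sums, or 4 in the other comparisons). These sums went into edgeR 4.0.16, with TMM scaling, filterByExpr, the quasi-likelihood F test and Benjamini-Hochberg adjustment over all genes tested (threshold 0.05). Markers that ranked the spots of a comparison took no part in its test, while held-out markers and those of other lists did. The section is the block because regions were cut from the same section, so same-numbered sums come from 1 sample. The 4-sum fits have 1 residual degree of freedom, and the spread of a gene leans on that of all genes. In the basal-leaning fit the prior degrees of freedom were infinite, so the spread there was taken wholly from all genes. A gene's own disagreement between sections then had no weight in its p-value. Embryo sections carry no test. Named genes were the 10, the 6 other pathway genes with the widest called difference between epithelium-rich and muscle-rich spots, and the 3 most alike per gene. Further genes were named after their values were seen. Alternatives were DESeq2 1.42.0, striated muscle markers alone, other scaling, filters, region sizes and UMI limits. The edgeR fits were also run on simulated counts with known changes, whose outcome is not given here. As many genes were raised as lowered there, so that run cannot check the scaling. Tissue images were not used here.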

Additional observations from a re-analysis of the deposited data

Results flagged for a closer look

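In the ratio of epithelium-rich over smooth-muscle-rich spots, 4 genes had a sign in an embryo section opposite to that of both P0 sections. The difference between stages was not tested, since each embryo stage has 1 section. Jag1 had this at both stages, with log2 ratios of -0.76 (95% interval -1.22 to -0.31) at E13.5 and -0.56 (95% interval -1.13 to 0.01) at E16.5, against 1.17 (95% interval 0.60 to 1.77) and 0.39 (95% interval -0.14 to 0.94) in P0 replicates 1 and 2. Notch2 was at -0.70 (95% interval -1.11 to -0.31) at E13.5 against 0.06 and 0.58 at P0. Dll1 was at 0.19 (95% interval -1.62 to 1.90) at E13.5 against -0.28 and -1.46, and Hey1 at 0.21 (95% interval -0.38 to 0.79) against -2.01 and -4.35. For Dll1 and Hey1 the embryo interval spans 0, as does that of Jag1 at E16.5 and in P0 replicate 2. In P0 replicate 1 the intervals of Notch2 (-0.30 to 0.43) and Dll1 (-1.46 to 0.96) also span 0. The sign rule was run on the 10 genes alone, so no share of all genes stands beside the count of 4. The P0 epithelium-rich spots also miss the held-out limit of 2 set for embryo lists (1.34 and 1.32). Intervals are exact binomial and cover counting error only.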

How the results depend on the processing

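Among the P0 fold changes of the 10 genes, 241 values with an adjusted p under an alternative kept their side of the threshold. A further 9 lost a call and 4 gained one. Of genes called under the main or the alternative setting, 0 changed sign. A change of sign in a gene called under neither was not counted. The calls at stake stand beside their genes above, apart from the following. Notch3 between epithelium-rich and muscle-rich spots was gained without a filter (adjusted p = 0.0241), and Jag1 in the endothelium-rich spots at 2000 UMIs (0.0429). A further 4 values, of Notch2, Notch3, Jag1 and Jag2 between basal-leaning and suprabasal-leaning spots, had no adjusted p from DESeq2, so the count of the 10 genes higher there has no DESeq2 value. Values of 1 section alone carry no test. DESeq2 gave 2238 genes higher and 2344 lower between epithelium-rich and muscle-rich spots, 0 and 115 between basal-leaning and suprabasal-leaning spots, 51 and 0 between striated-leaning and smooth-leaning spots, and 213 and 292 in the endothelium-rich comparison with 0 of the 10 higher. Without the replicate block, which drops the pairing by section, the first comparison had 3348 genes higher and 3450 lower, the striated-leaning one 0 and 0, and the endothelium-rich one 707 higher. Beside Dll4 and Heyl, given above, the block changed no other call of the 10 genes. On library size alone, added after the data were seen, basal-leaning counts were 377 higher and 365 lower (shift of the median 0.14, share higher 26.1% to 50.8%), striated-leaning 92 lower (shift -0.10, 90.8% to 64.5%) and endothelium-rich 702 lower (shift 0.12, 51.6% to 63.8%). With no filter on low counts basal-leaning spots had 139 genes higher, and striated-leaning spots 264 higher and 61 lower; at 2000 UMIs the latter were 199 and 63. With 15% of spots the endothelium-rich comparison had 727 genes higher, 691 lower and 5 of the 10 higher.

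With 1% of embryo spots, 1 of the 10 genes was past 2-fold lower in the E13.5 neural progenitor, E13.5 smooth muscle, E16.5 epithelial and E16.5 neural progenitor spots, 2 in the E16.5 mucosal keratin spots and 3 in the E16.5 neuronal spots. With 4%, 1 was higher in the E13.5 epithelial and E16.5 mucosal keratin spots, 0 higher in the E16.5 neuronal spots, and lower counts were 1 in the E13.5 smooth muscle, 0 in the E16.5 mucosal keratin and 1 in the E16.5 thymocyte spots. No share of all genes past 2-fold is at hand for 1% or 4% of spots, so these counts have no background. Of the embryo region levels 90 moved past their interval and 900 did not, and of the section levels 15 did and 65 did not. Over blocks of 4 by 8 positions, the 3 genes most alike shared 0 (Heyl), 1 (Notch2, Jag1, Dll1, Hey1) or 2 members with those given. The causes were not tested. Dll1, Dll4 and Hey1 had under 60 UMIs in each P0 section, which limits their P0 values.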

Other observations

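Several pathway genes outside the 10 had section levels that set the P0 esophagus apart from the embryos. Dner stood at 198 CPM at E13.5, 148 CPM at E16.5, and 1.95 and 2.04 CPM in P0 replicates 1 and 2. Dlk2, a non-canonical ligand related to Dlk1, ran the other way at 16 CPM at E13.5, 15.6 CPM at E16.5, and 44.1 and 43.6 CPM in P0 replicates 1 and 2. Hes5 was at 33.3 and 23.5 CPM in the embryos, had 0 UMIs in P0 replicate 1, which allows up to 0.292 CPM, and 0.272 CPM in replicate 2. Notch4, the endothelial receptor, was nearly level at 13.3 CPM at E13.5, 13.2 CPM at E16.5, and 13.2 and 16.3 CPM in P0 replicates 1 and 2. These genes were named after their values were seen, and no difference between sections was tested.

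In endothelial spots of the embryos, Notch4 was at 31 CPM (95% interval 23.6 to 40.00) at E13.5 and 41.1 CPM (95% interval 30.8 to 53.7) at E16.5, against 12.9 and 12.8 CPM elsewhere. Mfng was at 42 and 27.9 CPM there, and Nrarp at 45.7 and 44.9 CPM. The E16.5 endothelial spots share 36 of 72 with the lung list, and the part of lung was not tested. In the thymocyte spots at E16.5, Hes6 was at 201 CPM against 52.5 CPM elsewhere, and Mfng at 41.9 against 10.2 CPM.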
